A study of Homo sapiens with 9 samples.

Results

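The albumin gene family of secreted carrier proteins was followed in Hep3B, an established human liver cancer cell line, under hypoxia. Its members were taken as the rows named ALB, AFP, AFM and GC, which are 4 of the 26475 genes listed for each library. The study sequenced polyA RNA from cells that spent 6 h in hypoxia with either DMSO, a solvent, or a compound that the labels call DHE, and its design text asks how DHE affects liver cancer cells under hypoxia. A replicated set holds 6 of the 9 libraries, 3 with DMSO and 3 with DHE, and the other 3 make a dose set of 1 DMSO library, 1 labelled DHE high and 1 labelled DHE low. No concentration is given for DHE in either set, every library is hypoxic, and a single cell line was used. The labels do not say whether replicates came from separate cultures; the p-values therefore measure the spread between these libraries alone, which may be technical.

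Albumin family proteins are made chiefly by hepatocytes and secreted into plasma. Albumin itself carries fatty acids, hormones and drugs and holds up the osmotic pressure of blood. Alpha-fetoprotein, the product of AFP, is the main carrier of fetal plasma, is shut off after birth and comes back in many liver cancers, where it serves as a serum marker. AFM encodes afamin, a glycoprotein that binds vitamin E and keeps Wnt proteins soluble. GC encodes the vitamin D-binding protein, which also binds actin released from damaged cells.

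All 4 genes lie on chromosome 4. In the RefSeq annotation of GRCh38.p14, GC spans 71741693 to 71805520, ALB 73404287 to 73421482, AFP 73436221 to 73456174 and AFM 73481745 to 73504001. ALB, AFP and AFM sit side by side on the plus strand, with 14.7 kb between ALB and AFP and 25.6 kb between AFP and AFM, whereas GC lies 1598.8 kb below ALB. RefSeq promoter sequences were matched for 3 of the 4 members, ALB, AFP and AFM. They are printed because ALB and AFP changed in the same direction below while AFM, next to them, was barely detected. Each run holds the 250 bases before the gene start, 5′ to 3′, at chr4:73404037-73404286 for ALB, chr4:73435971-73436220 for AFP and chr4:73481495-73481744 for AFM. Capitals mark CCAAT, which reads ATTGG on the opposite strand, and TATAAA.
ALB: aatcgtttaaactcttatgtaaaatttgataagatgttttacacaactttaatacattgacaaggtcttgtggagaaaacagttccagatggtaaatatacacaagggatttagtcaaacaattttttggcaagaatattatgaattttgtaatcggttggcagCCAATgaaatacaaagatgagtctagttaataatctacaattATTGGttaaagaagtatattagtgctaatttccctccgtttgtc
AFP: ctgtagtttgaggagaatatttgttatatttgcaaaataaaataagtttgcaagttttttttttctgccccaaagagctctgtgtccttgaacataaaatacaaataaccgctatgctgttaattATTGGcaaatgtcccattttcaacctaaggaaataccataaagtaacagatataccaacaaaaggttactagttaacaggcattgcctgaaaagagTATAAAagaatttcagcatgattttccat
AFM: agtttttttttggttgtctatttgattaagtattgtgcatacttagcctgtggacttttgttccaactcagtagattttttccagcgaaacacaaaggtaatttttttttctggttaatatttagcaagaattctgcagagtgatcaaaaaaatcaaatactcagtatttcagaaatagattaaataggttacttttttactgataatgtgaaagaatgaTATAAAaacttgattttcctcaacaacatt
CCAAT occurred on either strand at 2 places in ALB, from base -86 to -82 and from -44 to -40 before the gene start, and at 1 in AFP, from -125 to -121. It was not found in AFM, and 32.7% of 27305 RefSeq promoter windows of the same length held it. No marked motif overlapped another. TATAAA occurred in AFP, from -29 to -24, and in AFM, from -30 to -25, against 11.4% of all windows. The core of the albumin D-site, TTGTAAT, which factors of the DBP and C/EBP type can bind, was found in ALB alone among these 3 (2.09% of windows). The FOXA core TGTTTNC was likewise found in ALB alone (15.8%). Neither ACGTG (18.3%) nor GCGTG (31.5%), the cores of hypoxia response elements, occurred in any of the 3 windows on either strand. The windows were rich in A and T, at 70% for ALB, 68.4% for AFP and 72% for AFM.

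The libraries held between 22167516 and 36267216 counts in total. The 3 counts allowed by a count of 0 correspond to between 0.0827 and 0.135 CPM, that is counts scaled to library totals, a limit on counting error only. The hepatocyte markers HNF4A, TTR, APOA1, APOB, SERPINA1, FGB and TF were present in every library, at a summed 6536 to 7568 TPM (transcript shares scaled for length) in the replicated set. KDR, ACTA2, DCN, HBB and HBA1, markers of endothelial, stromal and erythroid cells, were at 0 in all 9 libraries. Other markers of these lists were present: over the 9 libraries LUM ranged from 8.61 to 45.5 TPM, COL1A1 from 0.550 to 20.3 TPM, PDGFRB from 1.17 to 5.74 TPM and the endothelial PECAM1 from 0.370 to 1.80 TPM. The 5 stromal markers summed to 25.3 to 28.6 TPM with DMSO and 31.7 to 37.3 TPM with DHE in the replicated set, without overlap. There the means of COL1A1 (13.7 and 18.2), LUM (9.48 and 11.3) and PDGFRB (4.26 and 5.03 TPM) were all higher with DHE. In the dose set the sums were 20.3, 26.8 and 47.3 TPM for DMSO, high and low. LUM alone rose in that set, at 15.6, 24.3 and 45.5 TPM. COL1A1 (1.10, 0.550 and 0.630 TPM) and PDGFRB (3.60, 1.90 and 1.17 TPM) were lower with DHE in the dose set. The 5 endothelial markers summed to 0.840 to 1.06 TPM with DMSO and 0.440 to 0.600 TPM with DHE in the replicated set. Nearly all of that was PECAM1, with means of 0.897 and 0.487 TPM. The 6 leukocyte markers summed to 113 to 126 TPM with DMSO and 68.9 to 73.7 TPM with DHE, nearly all from LYZ and CD68, with PTPRC at no more than 4 counts. The 4 bile duct markers summed to 990 to 1016 TPM with DMSO and 1047 to 1123 TPM with DHE, among them KRT19, EPCAM and SOX9. The part of these marker groups in the results was not tested. DHE replicate 1 differed from DHE replicates 2 and 3 by a chi-square of 30.9 and 36.6 a gene, against 5.61 between those 2 libraries, and results are given with and without it where it matters.

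The members spanned a wide range of levels in control cells. On the TPM scale, in the DMSO libraries of the replicated set, ALB stood at 5169 ± 64.5, AFP at 171 ± 6.56, GC at 138 ± 6.47 and AFM at 0.560 ± 0.242 TPM (SD, n = 3). Every DMSO library held more AFP than GC. In the DHE libraries of the replicated set AFP stood at 144 ± 9.25 and GC at 146 ± 13 TPM (SD, n = 3), values that do not differ beyond their spread. AFP was above GC in both DHE libraries of the dose set, at 777 against 90.6 TPM and 304 against 46.3 TPM. ALB alone took 0.485% to 0.647% of all counts in the replicated set.

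**Figure D1:**
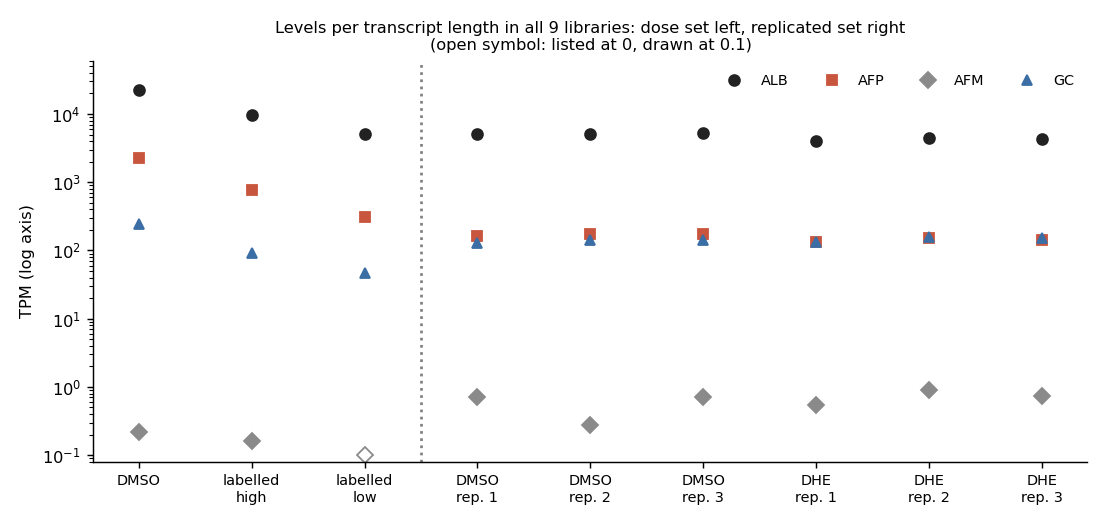
Levels of ALB, AFP, AFM and GC in TPM on a log axis, 1 symbol a library, with the dose set left of the dotted line and the replicated set right of it. ALB is highest in every library and AFM stays under 1 TPM, while AFP, at 2233 TPM, lies far above GC, at 245 TPM, in the DMSO library of the dose set but next to it in the replicated set.

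DHE lowered ALB and AFP in the replicated set by about the same proportion, while no change was called for GC or AFM. Values in this comparison are CPM scaled by TMM over the 6 libraries, and calls are adjusted over all 14492 genes tested. ALB was measured at 6559, 6023 and 6155 CPM in DMSO replicates 1 to 3 and at 5424, 4810 and 4800 CPM in DHE replicates 1 to 3. All 3 DHE libraries were below all 3 DMSO libraries, and replicate 1 was the highest of both groups. The log2 fold change of ALB was -0.32 ± 0.06 (SE), with an adjusted p = 0.00261 by edgeR's quasi-likelihood test. Without DHE replicate 1 it was -0.38 (edgeR adjusted p = 2.13e-05).

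AFP stood at 188, 184 and 183 CPM with DMSO and at 160, 150 and 145 CPM with DHE. The groups again did not overlap. Its log2 fold change was -0.29 ± 0.05 (SE, edgeR adjusted p = 0.00146), and -0.33 without DHE replicate 1 (edgeR adjusted p = 1.14e-04). With limma on log2(TPM + 1) neither gene passed, with -0.29 and an adjusted p = 0.0719 for ALB and -0.26 and an adjusted p = 0.108 for AFP. With all 9 libraries and the set as a covariate AFP did not pass edgeR's threshold either, at -0.91 (adjusted p = 0.0775). That fit counts the libraries labelled high and low as DHE replicates, although AFP was at -1.63 and -3.03 in them. A call lost there therefore does not bear on the replicated set alone. In bulk RNA, fewer cells expressing a gene and less of its RNA per cell cannot be told apart.

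GC was nearly level. It was measured at 128, 129 and 127 CPM with DMSO and at 135, 133 and 130 CPM with DHE. Every DHE library was above every DMSO library, but by a margin that edgeR did not call: the log2 fold change was 0.06 ± 0.05 (SE), with a 95% interval of -0.04 to 0.16 and an adjusted p = 0.409. In this fit the interval excludes a fall of the size seen for ALB and AFP. With all 9 libraries and the set as a covariate the direction turned, to -0.60 (edgeR adjusted p = 0.207).

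AFM was near the limit of detection, with 26, 10 and 26 counts with DMSO and 17, 27 and 25 counts with DHE. It passed the filter on low counts, and its groups overlapped. The log2 fold change of 0.32 ± 0.46 (SE, edgeR adjusted p = 0.647) had a 95% interval of -0.67 to 1.31, so a change as large as that of ALB in either direction was not detectable at this depth. Without DMSO replicate 2, the library with 10 counts, it was -0.01 (edgeR adjusted p = 0.986).

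Calls of either direction made up 26.2% of all genes tested, and falls 12.8%, so 2 members called lower out of 4 tested is a small count read against many calls. Groups that do not overlap, as for ALB, AFP and GC, were found in 41.6% of tested genes. The size of the change was ordinary too: 27.3% of tested genes had a larger absolute log2 fold change than ALB and 31.3% a larger one than AFP.

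**Figure D2:**
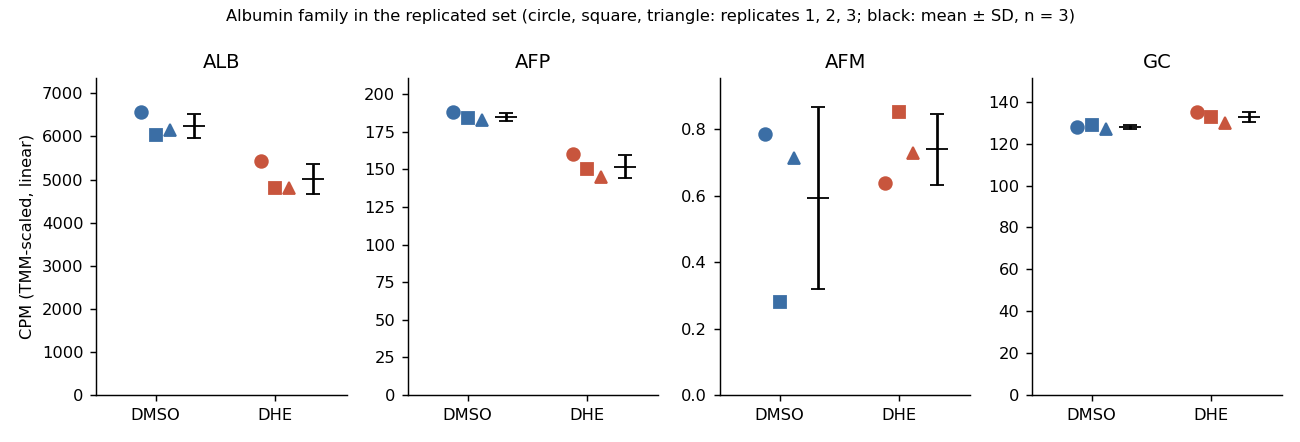
CPM of the 4 members in the replicated set, on linear axes from 0; circles, squares and triangles are replicates 1, 2 and 3 and the black bars the mean ± SD (n = 3). ALB and AFP are lower in all 3 DHE libraries, GC lies between 127 and 135 CPM throughout, and AFM overlaps between groups.

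Relative to ALB, the AFP values of the DMSO and DHE libraries overlapped and the GC values did not. For every 100 ALB transcripts on the TPM scale there were 3.21, 3.42 and 3.32 AFP transcripts with DMSO and 3.31, 3.48 and 3.38 with DHE, values that overlap (log2 difference 0.03, two-sided exact permutation p = 0.5). GC went from 2.55, 2.77 and 2.67 to 3.27, 3.59 and 3.52 per 100 ALB transcripts, with no overlap. That log2 difference of 0.38 had an exact permutation p = 0.1, the smallest that 3 libraries against 3 can give, and p = 0.300 adjusted over the 3 ratios tested. AFM per 100 ALB was 0.0108 ± 0.00468 with DMSO and 0.0171 ± 0.00336 with DHE (SD, n = 3, exact permutation p = 0.200).

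In the dose set ALB, AFP and GC were all several-fold lower with DHE, and the library labelled low was below the library labelled high for each. With 1 library a group there is no replicate check and no test. Intervals are exact binomial intervals at 95% and cover counting error only, and both DHE libraries share their DMSO library. Values are CPM scaled over the 3 libraries.

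ALB stood at 28029 CPM with DMSO, 10925 CPM in the library labelled high and 5599 CPM in the library labelled low. In the DMSO library ALB was the most abundant of all listed transcripts by TPM, and the 4 members together took 2.93% of its counts, against 1.18% in the library labelled high and 0.622% in that labelled low. Between the DHE libraries ALB was 1.95-fold lower in the one labelled low (interval 1.94 to 1.96).

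AFP, which had the largest ratio between DMSO and the library labelled low among the 3 members that passed the count minimum, stood at 2464, 796 and 301 CPM in the same order. Its log2 ratio to DMSO was -1.63 in the library labelled high and -3.03 in that labelled low, and it was 2.64-fold lower in the latter than in the former (2.57 to 2.71). Per 100 ALB transcripts, AFP went from 9.82 with DMSO to 8.14 and 6.01, so the ratio to DMSO was lower for AFP than for ALB in both libraries.

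GC, for which no change was called in the replicated set, stood at 233 CPM with DMSO, 80.5 CPM in the library labelled high and 39.6 CPM in that labelled low. It was thus 2.90-fold (2.76 to 3.05) and 5.90-fold (5.50 to 6.33) lower than DMSO. AFM had 6, 4 and 0 counts, too few for a ratio in this set, and did not reach the minimum of 20 counts in 1 library.

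A level at least 2-fold below DMSO was seen for 3.39% of 13468 genes in the library labelled high, for 6.60% in that labelled low and for 2.33% in both. ALB, AFP and GC, the 3 members that passed the count minimum, were below that line in both libraries. Of all genes 1.52% had a lower ratio than ALB in the library labelled high, 0.854% a lower one than AFP and 1.02% a lower one than GC. In the library labelled low these shares were 0.913%, 0.356% and 0.639%. The 7 hepatocyte markers, which hold no family member, summed to 11218 TPM with DMSO, 8515 TPM for high and 5061 TPM for low. The markers differed among themselves. APOA1, the apolipoprotein of HDL, stood at 4210, 2317 and 955 TPM, whereas on this scale HNF4A at 94.5, 101 and 71.9 TPM, TTR at 136, 149 and 80.8 TPM and APOB at 354, 449 and 295 TPM were higher than DMSO in the library labelled high. On the CPM scale used for the members, HNF4A and TTR were level between DMSO and high, at 243 and 242 CPM and at 56.5 and 57.0 CPM. The part of these markers in the result was not tested.

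**Figure D3:**
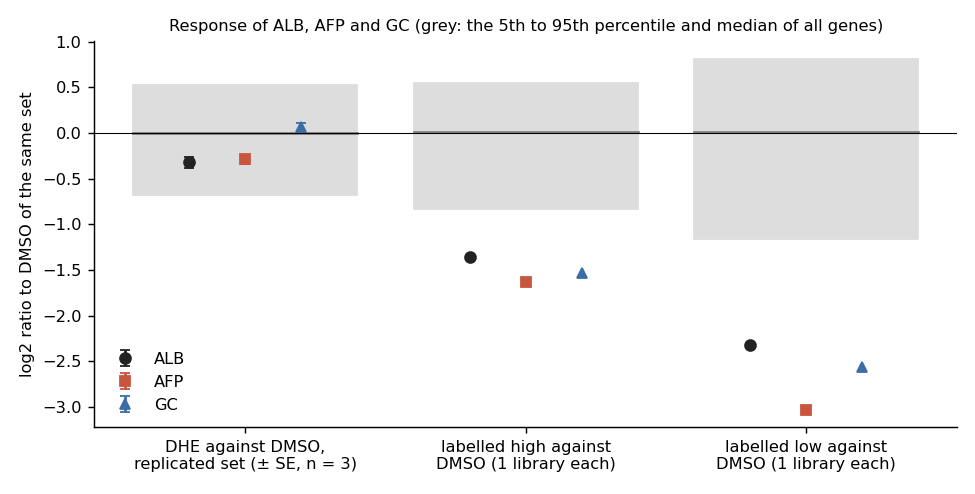
Log2 ratio of ALB, AFP and GC to the DMSO libraries of the same set; the replicated set has SE bars (n = 3) and the dose set 1 library each, and the grey boxes span the 5th to 95th percentile of all genes with their median. The 3 genes lie below the grey box in both dose-set libraries and inside it in the replicated set, where GC is at 0.06.

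The DMSO libraries themselves differed between the sets, in the members by different factors. On a CPM scale over all 9 libraries, the DMSO libraries of the replicated set held 6061 ± 280 CPM of ALB (SD, n = 3) and that of the dose set 29720 CPM, 4.90 times as much. AFP was 14.6 times as high in the dose set, at 2613 CPM against 179 ± 2.72 CPM (SD, n = 3). GC was 2.0 times as high, at 247 CPM against 124 ± 0.537 CPM (SD, n = 3), and AFM 0.429 times as high on 6 counts. The library labelled low, at 5903 CPM of ALB, was inside the range of the replicated DMSO libraries (5829 to 6372 CPM), with more AFP (318 CPM) and less GC (41.7 CPM) than any of them. Set and culture cannot be told apart, since each set has its own control.

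Transcription factors that act on the ALB and AFP promoters and enhancers, or on liver genes more widely, were called in both directions in the replicated set, more of them higher. Of 23 list members, all tested, 7 rose and 2 fell with a median log2 fold change of 0.12, where all genes had a median of 0.00 and 26.2% were called. HNF4A, a nuclear receptor that heads the hepatocyte network, rose by a log2 fold change of 0.51 (edgeR adjusted p = 2.29e-05). The homeobox gene PROX1 rose by 0.43 (edgeR adjusted p = 1.20e-04). The 2 that fell were HLF, a factor of the DBP family, at -1.07 (edgeR adjusted p = 0.00102) and FOXA2, a pioneer factor of liver genes, at -0.27 (edgeR adjusted p = 0.00757). With all 9 libraries and the set as a covariate HNF4A (0.27, edgeR adjusted p = 0.178) and PROX1 (0.29, edgeR adjusted p = 0.0521) did not pass. In that fit 1 regulator was called higher and 3 lower, so most calls were no longer rises. Over all genes it called 1401 higher and 1366 lower.

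Some factors classically tied to the family were not called. CEBPA, a driver of ALB transcription, was at 0.13 (edgeR adjusted p = 0.135). ZHX2 and ZBTB20, repressors of AFP after birth, were at -0.10 (edgeR adjusted p = 0.194) and 0.17 (edgeR adjusted p = 0.242). HLF, FOXA2, CEBPA, CEBPB, ZHX2 and ZBTB20 were picked with their values in view. In the dose set the median of the 23 was -0.19 in the library labelled high and -0.51 in that labelled low. In the library labelled low 3 of the 23 were at least 2-fold lower and 1 was 2-fold higher, against 6.60% and 3.03% of all genes. None was 2-fold lower or higher in that labelled high. CEBPA stood at 450, 353 and 175 CPM for DMSO, high and low, whereas HNF4A stood at 243, 242 and 171 CPM. CEBPB, the 1 that was 2-fold higher, stood at 45.1, 39.6 and 112 CPM.

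Other plasma carriers made by the liver were called often and in both directions. Of 18 listed, 15 could be tested, and 4 rose, 8 fell and 3 were not called in the replicated set, with a median of -0.23. That is 80.0% called, against 26.2% of all genes tested, a share that is not matched for level. At the extremes the carriers tested ranged from 1.78 CPM for FETUB to 6071 CPM for SERPINA1 with DMSO. Smaller changes can be called at higher counts. AHSG, the fetuin-A gene, fell from 2411 ± 102 to 1833 ± 35.3 CPM (SD, n = 3, -0.40, edgeR adjusted p = 2.11e-04), and A2M, a broad protease inhibitor, by 0.31 on the log2 scale (edgeR adjusted p = 0.00125). The call of A2M ended with limma on log2(TPM + 1) (adjusted p = 0.154). HPX, which carries haem, rose from 10.5 ± 1.63 to 17.3 ± 1.14 CPM (SD, n = 3, 0.72, edgeR adjusted p = 6.91e-04). Without DMSO replicate 2, 2 of these genes were called higher, and without DHE replicate 3, 5 were called lower.

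In the dose set 4 of the 15 carriers were at least 2-fold lower in the library labelled high and 8 in that labelled low, against 3.39% and 6.60% of all genes. None was 2-fold higher in either, where 0.943% and 3.03% of all genes were. AHSG stood at 7113, 3167 and 1412 CPM for DMSO, high and low. HPX, which rose in the replicated set, stood at 13.6, 5.61 and 2.07 CPM, and with all 9 libraries in 1 edgeR fit it was at -0.03 (adjusted p = 0.967).

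Genes that handle the ligands of the family or take up its proteins were called in both directions in the replicated set. Of 17 listed, 13 could be tested, and 2 rose and 2 fell (median -0.11). At 30.8% called, the list was near the 26.2% of all genes. B2M, the partner of the Fc receptor that rescues albumin from breakdown, fell from 178 ± 4.42 to 145 ± 2.91 CPM (SD, n = 3, -0.29, edgeR adjusted p = 7.78e-04). DHCR7, which consumes the precursor of vitamin D, rose by 0.23 (edgeR adjusted p = 0.00400), and DAB2, an endocytic adaptor, by 0.22 (edgeR adjusted p = 0.00911). With limma on log2(TPM + 1) these 3 genes did not pass (adjusted p = 0.0981, 0.184 and 0.220), nor did DHCR7 in the edgeR fit of all 9 libraries (adjusted p = 0.163). Without DMSO replicate 1, 2 or 3 or DHE replicate 2 or 3, 1 gene of the list was called lower. The transcripts of LRP2, CYP24A1, TTPA and SPARC had at most 4, 10, 9 and 19 counts in a library and were not tested. FCGRT, the gene of that Fc receptor, was not called (-0.11, edgeR adjusted p = 0.149). In the dose set 12 list genes passed the count minimum. Of these, 0 were 2-fold lower in the library labelled high and 3 in that labelled low, against 3.39% and 6.60% of all genes. The 3 were FCGRT (-1.02), AMN (-1.16) and CD36 (-1.37, at most 32 counts), named with their values in view.

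Of 18 genes of secretory processing, all tested, 1 rose and 3 fell (median -0.04), which is 22.2% called against 26.2% of all genes. FURIN, a convertase of the enzyme group that cuts the propeptide from proalbumin, rose from 922 ± 11.5 to 1218 ± 76.2 CPM (SD, n = 3, 0.40, edgeR adjusted p = 2.73e-04). LMAN1, a cargo receptor for export from the endoplasmic reticulum, fell by 0.32 on the log2 scale (edgeR adjusted p = 0.00112) and HSPA5, the main chaperone there, by 0.26 (edgeR adjusted p = 0.00229). Neither of the latter passed with limma on log2(TPM + 1) (adjusted p = 0.126 and 0.169), nor did LMAN1 in the edgeR fit of all 9 libraries (adjusted p = 0.181). Without DHE replicate 1, 6 genes of this list were called lower, and without DHE replicate 2, 2 were called higher. No gene of the list moved 2-fold in either dose-set library.

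The neighbours of the family on chromosome 4 were taken as 12 other protein-coding genes that lie wholly within 500 kb of the stretch from GC to AFM. A gene that crossed the edge of that window was not taken, and all 12 lie above GC. Of these, 8 could be tested, and 2 rose and 1 fell (median 0.14), or 37.5% called against 26.2% of all genes, on few genes. CXCL8, the interleukin-8 gene at 73740569 to 73743716, rose from 65.5 ± 2.39 to 116 ± 11.4 CPM (SD, n = 3, 0.83, edgeR adjusted p = 5.05e-06). CXCL6, a related chemokine gene, rose by 0.39 (edgeR adjusted p = 0.0135), which did not pass when DMSO replicate 2 was left out (edgeR adjusted p = 0.0591) and was at -0.01 with all 9 libraries and the set as a covariate. RASSF6, the next gene beyond AFM, at 73571550 to 73620631, fell from 4.90 ± 0.261 to 3.45 ± 0.561 CPM (SD, n = 3, -0.51, edgeR adjusted p = 0.0447).

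The edgeR call of RASSF6 ended without DMSO replicate 1 (adjusted p = 0.0845), 2 (0.121) or 3 (0.0973) and without DHE replicate 1 (0.0589) or 2 (0.141). ANKRD17, the next coding gene below ALB, was at 0.08 (edgeR adjusted p = 0.439). COX18 was at -0.11 (edgeR adjusted p = 0.594), NPFFR2 at 0.67 on few counts (edgeR adjusted p = 0.278), CXCL1 at 0.08 (edgeR adjusted p = 0.468) and CXCL5 at 0.20 (edgeR adjusted p = 0.110). CXCL5 was called without DHE replicate 3 (edgeR adjusted p = 0.0304). In the dose set 8 neighbours passed the count minimum, with ADAMTS3, not tested in the replicated set, among them and NPFFR2 not. Of these 8, 0 were 2-fold lower in the library labelled high and 2 in that labelled low, against 3.39% and 6.60% of all genes. CXCL6, called higher in the replicated set, was 1 of the 2, with 16.7 CPM for DMSO, 6.20 CPM for low and a log2 ratio to DMSO of -0.60 for high. The other was ADAMTS3, on at most 34 counts, with 1.32 CPM for DMSO and 0.431 CPM for low. CXCL1 stood at 36.0, 18.6 and 19.0 CPM for DMSO, high and low, CXCL8 at 48.7, 51.3 and 94.9 CPM and ANKRD17 at 142, 164 and 146 CPM in the same order.

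**Figure D4:**
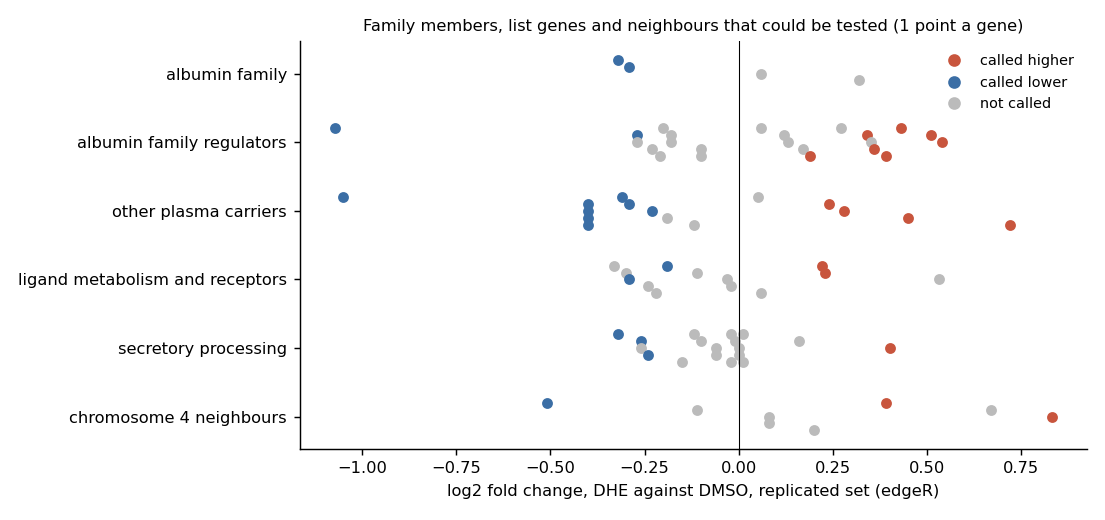
Log2 fold change with DHE in the replicated set for the family, the 4 lists and the neighbours on chromosome 4, 1 point a tested gene, coloured by the edgeR call at an adjusted p under 0.05. ALB and AFP lie at -0.32 and -0.29. Of the 23 regulators 7 are called higher and 2 lower, and of the 8 neighbours 2 higher and 1 lower. Over all genes 13.4% are called higher and 12.8% lower.

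The genes whose response was most like that of a member were sought among 10916 others (10917 for AFM), by Pearson r over the 9 libraries of log2 CPM relative to the DMSO libraries of the same set. These correlations are a description: the 9 libraries share their controls, and the large falls in both DHE libraries of the dose set dominate them. For ALB the closest were GPC3, the glypican-3 gene, which is itself a liver cancer marker (r = 0.9978), HPD, an enzyme of tyrosine breakdown (r = 0.9977), and AFP (r = 0.9969). For AFP they were ID1, an inhibitor of basic helix-loop-helix factors and a BMP target (r = 0.9982), GPC3 (r = 0.9977) and SERPINA6, the corticosteroid-binding globulin gene (r = 0.9973). ID1 had values close to those of AFP, at -1.74 and -2.99 in the libraries labelled high and low and at -0.27 in the replicated set. GPC3 was lower by smaller factors, at -0.85, -1.50 and -0.18.

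For GC the closest were PLOD2, a collagen lysyl hydroxylase gene (r = 0.9975), the lymphotoxin gene LTB (r = 0.9950) and ERRFI1, a feedback inhibitor of the EGF receptor (r = 0.9935). LTB was close in size in the dose set, at -1.77 and -2.52, with -0.05 in the replicated set. PLOD2, at -0.37 and -0.65, and ERRFI1, at -0.48 and -0.95, were lower by much smaller factors than GC, at -1.53 and -2.56. ALB ranked 97th for GC (r = 0.975) but 4th for AFP (r = 0.997). For AFM the closest were UBE2R2 (r = 0.9638), THADA (r = 0.9622) and NXN (r = 0.9609), a likeness that rests on at most 27 AFM counts in a library.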

How the data were processed

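PolyA RNA of 9 Hep3B libraries was isolated with TRIzol and made into libraries with NEBNext Ultra reagents, per the labels. Per the file headers, the deposited RSEM tables give for each gene an expected count, which is estimated and carries no normalization, and a TPM value, scaled by the authors' RSEM run for effective length and total. FPKM was not used. The submitters' processing notes name GRCh38; no aligner, tool version or strand setting is given in the sources used here. Coordinates and promoters come from RefSeq tables of GRCh38.p14, to which 25644 of 26475 genes (96.9%) were matched by transcript accession.

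Expected counts were rounded. The replicated set was tested for DHE against DMSO with edgeR 4.0.16 under R 4.3.3 (TMM, default low-count filter, two-sided quasi-likelihood test, Benjamini-Hochberg over all genes, threshold 0.05). The common biological coefficient of variation was 8.37%. The dose set was described without a test, by CPM after TMM scaling (prior count 2), over genes with at least 20 counts in 1 library. Alternatives used DESeq2 1.42.0, limma 3.58.1, other scaling and filters, each library left out, and a block for the replicate number. A further edgeR fit took all 9 libraries with the set as a covariate and counted those labelled high and low as DHE libraries. Figures used matplotlib 3.10.9 in Python 3.11.15.

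Members and lists were chosen with earlier results of these data known, and the motifs with the promoters in view. Named are all members, up to 3 called genes per list with the smallest p, all tested neighbours and the 3 genes most like each member with a mean of at least 5 CPM; exceptions are stated. Some genes and motifs under these rules are not reported here.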

Additional observations from a re-analysis of the deposited data

Results flagged for a closer look

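GC, the vitamin D-binding protein gene, was nearly level with DMSO in the replicated set and several-fold lower with DHE in the dose set. In the replicated set all 3 DHE libraries were above all 3 DMSO libraries, by a log2 fold change of 0.06 that edgeR did not call (adjusted p = 0.409). The interval of that change, -0.04 to 0.16, included no change. Groups that do not overlap were found in 41.6% of tested genes. In the dose set the log2 ratio to DMSO was -1.53 for the library labelled high and -2.56 for the library labelled low. The difference between the sets was not tested, since the dose set has 1 library a group.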

How the results depend on the processing

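The falls of ALB and AFP kept their direction in all 16 alternatives each and ALB kept its call in 14, AFP in 13. ALB was at -0.29 with limma on log2(TPM + 1) (adjusted p = 0.0719) and log2(TPM + 0.1) (adjusted p = 0.0596), and AFP at -0.26 with both (adjusted p = 0.108 and 0.112). With all 9 libraries and the set as a covariate AFP was at -0.91 (adjusted p = 0.0775), ALB at -0.79 and GC at -0.60 (adjusted p = 0.207), in place of 0.06. That fit estimates a single DHE effect over both sets, and in the dose set ALB was at -1.36 and -2.32 and GC at -1.53 and -2.56. Why the sets differ was not tested. Without each library in turn the values were -0.38 to -0.28 for ALB, -0.33 to -0.25 for AFP and -0.01 to 0.57 for AFM. Depth limits AFM, with at most 27 counts.

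Whether libraries of the same replicate number belong together is not given in the labels and was not settled here. Deviations of same-numbered libraries correlated by 0.09, 0.05 and -0.05. DHE replicate 1 differed from DMSO replicate 1 by a chi-square of 31.6 a gene. From DMSO replicates 2 and 3 it differed by 51.1 and 52.0. DHE replicates 2 and 3 were both nearest to DMSO replicate 2 among the DMSO libraries, at 35.5 and 38.9. With the number as a block ALB and AFP stayed at -0.32 and -0.29, GC at 0.06 and AFM at 0.39. The block gave 4 regulators lower in place of 2. Among all genes it called 2250 higher and 2186 lower, in place of 1945 and 1858.

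Over all genes, limma called 497 higher and 448 lower on log2(TPM + 1) and 486 and 436 on log2(TPM + 0.1), in place of 1945 and 1858. On either TPM scale the lists gave 1 regulator lower, 4 plasma carriers lower, 0 ligand genes higher and 0 lower, 0 secretory genes lower, and 1 neighbour higher and 0 lower. With all 9 libraries they gave 1 regulator higher and 3 lower, and 0 carriers higher and 6 lower. That fit also gave 1 ligand gene higher and 1 lower, 1 secretory gene lower, and 1 neighbour higher and 0 lower. Ligand genes gave 1 lower with DESeq2 size factors, library totals, the DESeq2 test or no filter, and neighbours 0 lower with the DESeq2 test. Leaving out each library gave 2 to 4 carriers higher and 5 to 8 lower, 1 to 3 ligand genes lower, 1 to 2 secretory genes higher and 3 to 6 lower, and 1 to 3 neighbours higher and 0 to 1 lower.

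In the dose set library totals gave log2 ratios for ALB of -1.29 (high) and -2.19 (low), for AFP of -1.56 and -2.90, and for GC of -2.42 (low). TPM gave -1.25 and -2.17 for ALB, -1.52 and -2.88 for AFP, and -1.44 and -2.40 for GC, and DESeq2 size factors gave -2.33 for ALB (low).

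Of 352 alternatives for single named genes, 319 kept direction and call, 28 lost the call, 1 gained it and 4 turned. The 4 arose with all 9 libraries: HPX at -0.03, CXCL6 at -0.01, CXCL1 at -0.24 and CEBPA at -0.16. No alternative gave a TPM ratio for AFM in the library labelled low, which is listed at 0.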
